A study of Mus musculus with 2 samples.

Results

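Mrc1 and Pf4 positive macrophages were picked out among single-cell profiles of irradiated mouse medulloblastoma. A cell barcode counted as a member when it carried at least 5 unique molecular identifiers (UMIs, each standing for 1 captured RNA molecule) of the complement subunit genes C1qa, C1qb and C1qc, at least 3 UMIs of Mrc1, Pf4, F13a1 and Cd163 together, and at most 2 UMIs of the homeostatic microglia genes P2ry12, Tmem119, Sall1 and Siglech together. Barcodes under 500 detected genes or over 10% mitochondrial UMIs were not used. The rule found 120 members among 18827 such barcodes, which were 56 of 10366 in the FLASH library and 64 of 8461 in the standard library. A total of 606 barcodes passed the C1q limit. Members were thus chosen by the measured RNA of these 11 genes in the same barcodes, and the levels of the 11 genes are given as a description.

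The tumours arose in Math1-Cre;SmoM2fl/fl mice, in which Cre made in cerebellar granule neuron precursors and their descendants switches on an activated form of the Hedgehog receptor component Smoothened. In 1 library the tumour had received FLASH protons, given at a far higher dose rate, and in the other it had received standard proton irradiation. Both groups thus shared the genotype, the tumour type and exposure to protons, and no unirradiated tumour was analysed here. The labels of both samples give a dose of 5 Gy, while the design text of the series gives 10 Gy, and the difference was not resolved. The mice were perfused with buffer, which flushes blood from the vessels, and the tumours were dissociated with collagenase and DNase. How old the mice were, how long after exposure the tumours were taken and how many mice each library came from is not stated in those sources. With 1 library a group, FLASH and standard irradiation were compared as values with counting errors and without a test.

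The brain holds several kinds of resident macrophage. Microglia live in the tissue itself and depend on Csf1r signalling, whereas border-associated macrophages sit in the meninges, around vessels and in the choroid plexus and carry the mannose receptor Mrc1, the platelet factor Pf4 and scavenger receptors such as Stab1. Monocytes that enter an inflamed or tumour-bearing brain arrive with the chemokine receptor Ccr2 and can take on features of either kind as they mature. Such cells clear debris, present antigen on MHC class II and release chemokines.

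The members had a median of 8468 UMIs in the FLASH library and 7719 in the standard library, with 2525 and 2336 detected genes. Mitochondrial UMIs made up a median of 3.38% of a member's UMIs in the FLASH library and 3.55% in the standard library. Their summed RNA came to 490715 UMIs in the FLASH library and 522782 in the standard library. Levels below are UMIs per 1000000 UMIs (CPM) of such sums over a class of barcodes. No member barcode of a library was listed in the other, although 46 barcodes were shared among all those deposited.

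Members were set against 2 other classes of C1q barcodes. The microglia class had at least 3 UMIs of the homeostatic genes and at most 2 of the marker genes, and held 65 FLASH and 83 standard barcodes with a median of 8021 and 8141 UMIs. The C1q-only class had at most 2 UMIs of either set and held 141 FLASH and 133 standard barcodes with a median of 4728 and 4883 UMIs, fewer than the members had. A further 42 FLASH and 22 standard barcodes had at least 3 UMIs of both sets and are called double barcodes.

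Pf4, on chromosome 5 at 90772435 to 90773383 (mm10), was the most widely detected of the 4 marker genes. It stood at 750 CPM in FLASH members and 838 CPM in standard members and was detected in 52 of 56 and 60 of 64 of them. Mrc1, on chromosome 2 at 14229392 to 14332057, reached 365 CPM in 35 FLASH members and 576 CPM in 53 standard members. F13a1, which encodes the A subunit of coagulation factor XIII, reached 185 CPM in 27 FLASH members and 163 CPM in 21 standard members. Cd163, the haemoglobin scavenger receptor, was close to absent. It had 16 UMIs in 3 FLASH members, of which 13 lay in 1 barcode, and 0 UMIs in the standard members. Most members carried more than 1 of the 4 genes, since 12 FLASH and 11 standard members had UMIs of a single one. Among kept barcodes below the C1q limit, whose median depth was 5292 UMIs in the FLASH library and 5652 in the standard library, Pf4 was detected in 0.0894% and 0.208%, and Mrc1 in 0.139% and 0.184%.

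The homeostatic microglia genes were low by the rule. Siglech had 0 UMIs in the members of both libraries, although the rule would have allowed some, and Sall1 stood at 2.04 CPM in FLASH members and 1.91 CPM in standard members. Tmem119 remained detectable at 81.5 CPM in FLASH members and 44.0 CPM in standard members.

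The label was checked against further genes known from border-associated macrophages. Lyve1, the hyaluronan receptor of one subset of these cells, had 2 UMIs in 1 FLASH member and 0 UMIs in standard members. Timd4, Cd209f and Cd209b had 0 UMIs in the members of both libraries, a count that allows up to 6.11 CPM in FLASH members and 5.74 CPM in standard members (3 counts of the sum). Folr2, a folate receptor, stood at 87.6 CPM in FLASH members and 32.5 CPM in standard members, against 82.6 CPM and 154 CPM in the microglia class. That the members carried C1q and marker RNA follows from the rule. The genes of this paragraph did not set them apart as border-associated macrophages, and Lyve1 RNA was detected in 1 of the 120. They are only part of a list of 17 border genes, described further below. Of 11 tested genes of that list, 7 were called higher and 0 lower in members than in the microglia class. Over all tested genes, 2.35% were called higher.

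**Figure D1:**
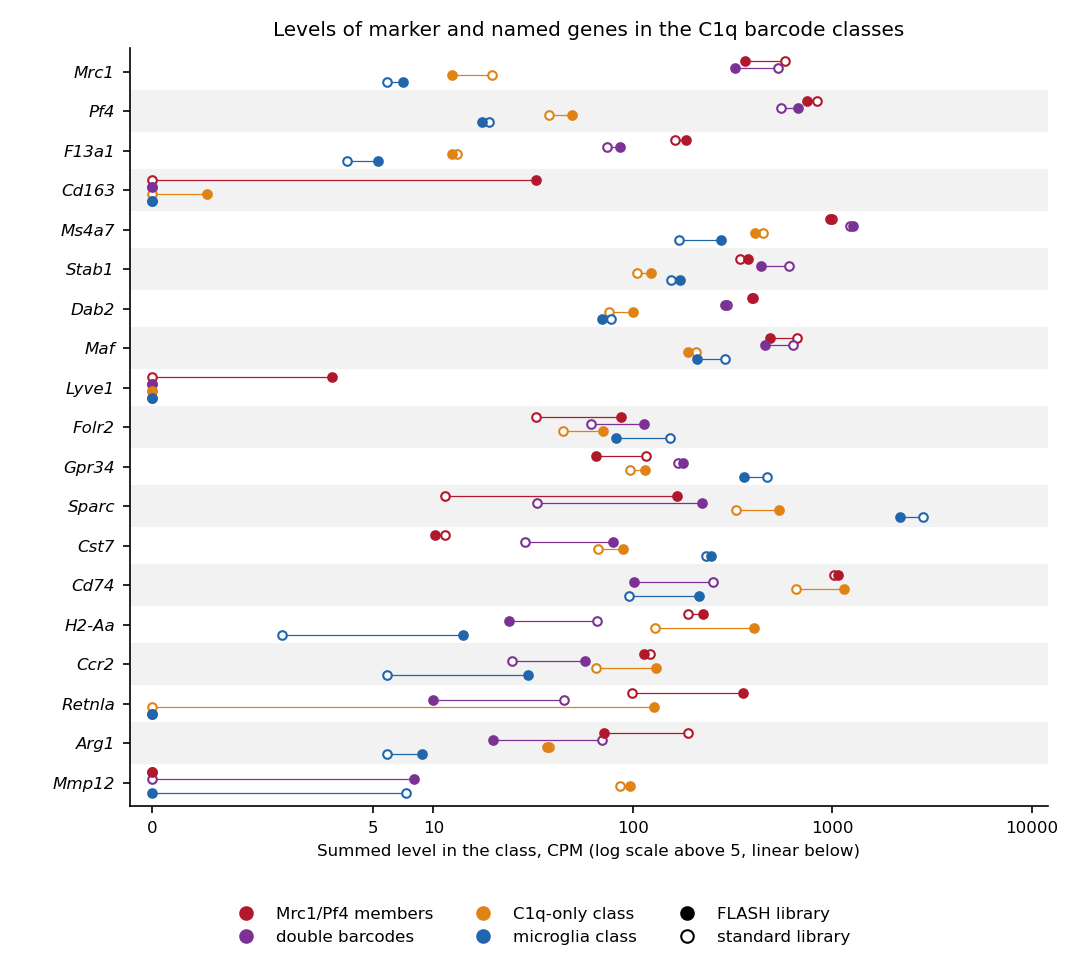
Summed level (CPM, log scale above 5 and linear below) of 19 genes in the 4 classes of C1q barcodes; filled points are the FLASH library, open points the standard library, and a line joins both. Mrc1, Pf4, F13a1 and Cd163 were part of the rule, and Ms4a7, Stab1, Dab2 and Maf, which were not, lie further right in members and double barcodes than in the microglia and C1q-only classes.

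Markers of other cells made up little of the members' RNA as sums over whole lists. Not every list was lower than in barcodes below the C1q limit. All 7 T and NK cell genes had 0 UMIs in both libraries. The dendritic cell list of 8 genes summed to 22.4 CPM in FLASH members and 26.8 CPM in standard members, with 6 genes at 0 in each. The neutrophil list of 7 genes summed to 55.0 CPM and 49.7 CPM, with 5 genes at 0 in each, and the B cell list of 4 genes to 26.5 CPM and 47.8 CPM. Endothelial genes summed to 291 CPM in FLASH members and 19.1 CPM in standard members. A single barcode held 95.8% of the FLASH value and all 83 UMIs of the tight junction gene Cldn5. Mural and fibroblast genes summed to 24.5 CPM and 3.83 CPM in FLASH and standard members, and astrocyte genes to 10.2 CPM and 34.4 CPM. Oligodendrocyte genes summed to 122 CPM and 153 CPM, and erythroid genes to 44.8 CPM and 42.1 CPM. In FLASH and standard barcodes below the C1q limit, B cell genes summed to 2.07 CPM and 2.58 CPM. Neutrophil genes there summed to 63.2 CPM and 41.6 CPM, and endothelial genes to 45.2 CPM and 33.3 CPM. Mural and fibroblast genes there stood at 13.1 CPM and 22.1 CPM, and astrocyte genes at 30.7 CPM and 20.9 CPM. T and NK cell, dendritic cell, oligodendrocyte and erythroid lists were higher there than in members in both libraries. The 11 granule lineage genes, markers of the tumour cells, summed to 222 CPM in FLASH members and 472 CPM in standard members, against 2912 CPM and 3042 CPM in barcodes below the C1q limit. The tumour transgene was also low in members, with Cre at 10.2 CPM in the FLASH library and 21.0 CPM in the standard library, against 687 CPM and 789 CPM in barcodes below the C1q limit.

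Genes that the rule did not use differed in how they stood on either side of its limits. At the lowest allowed sum of 3 marker UMIs there were 14 FLASH and 9 standard members, and a sum of 2 left out 20 and 16 C1q barcodes. Ms4a7, which encodes a membrane protein of the CD20 family, stood at 845 CPM in FLASH members and 790 CPM in standard members just inside this limit, against 373 CPM and 601 CPM just outside. On the homeostatic side 18 FLASH and 17 standard members stood at the highest allowed sum of 2, and 13 and 7 barcodes at 3 were left out. Ms4a7 was at 1235 CPM and 1232 CPM in those members, against 861 CPM and 957 CPM in the barcodes at 3. Dab2 went the other way at the marker limit, with 138 CPM in FLASH members and 70.2 CPM in standard members just inside, against 170 CPM and 191 CPM just outside, and Maf was close, with 230 CPM and 228 CPM inside, against 215 CPM and 219 CPM outside. At the homeostatic limit Dab2 and Maf in the FLASH library and Stab1 in the standard library were higher just outside. Stab1 there had 409 CPM in standard members, against 667 CPM in the standard barcodes at 3. In the other library each of the 3 was higher just inside, as with Stab1 at 489 CPM in FLASH members, against 336 CPM. At the marker limit Stab1 had 156 CPM and 211 CPM just inside in the FLASH and standard libraries, against 102 CPM and 153 CPM outside. Dab2 had only 15 and 4 UMIs in FLASH and standard members just inside that limit. None of these 3 border-associated genes, unlike Ms4a7, was higher just inside both limits in both libraries.

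Double barcodes carried border-associated genes at levels closer to those of members than to those of the microglia class. Ms4a7 stood at 1266 CPM in FLASH double barcodes and 1226 CPM in standard ones, and Dab2, an endocytic adaptor, at 289 CPM and 297 CPM. The 4 homeostatic genes, which set the classes by the rule, summed to 432 CPM and 458 CPM in FLASH and standard double barcodes. Their sums were 116 CPM and 101 CPM in members, and 821 CPM and 1061 CPM in the microglia class. Of these genes, Siglech was at 3.99 CPM and 12.4 CPM in double barcodes, against 151 CPM and 158 CPM in the microglia class. The double barcodes had a median of 10549 UMIs in the FLASH library and 10187 in the standard library, more than the members. Whether they are doublets was not tested.

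As sums, members against the microglia class showed higher border-associated Ms4a7, Dab2, Stab1 and Maf RNA and higher H2-Aa and Ccr2 RNA. RNA of all 10 tested genes of the microglia list outside the rule was lower. Few members held most of the MHC class II RNA, and most had no Ccr2 UMI. The C1q-only class had MHC class II RNA at 2565 CPM in FLASH and 1403 CPM in standard, against 1973 CPM and 1792 CPM in members. Of 7314 genes tested across both libraries, 474 were called at an adjusted p under 0.05, which is 6.48%. Of these, 172 (2.35%) were higher and 302 (4.13%) were lower in members, and the median log2 fold change of all genes was -0.02. The test was edgeR's quasi-likelihood test on the sums of 3 classes in 2 libraries, with the library as a block and Benjamini-Hochberg adjustment. The sums of 1 library share its preparation, and the block takes out differences common to a library. The p-values rest in part on how far differences between the 3 classes disagreed between the 2 libraries, which also differ in treatment. With 2 residual degrees of freedom, the fit drew each gene's spread toward a value shared over all genes. A small p-value thus does not stand for the agreement of that gene alone. The same sums gave 144 calls with DESeq2, barcodes with at most 5% mitochondrial UMIs gave 236, and thinning to 2000 UMIs a barcode gave 191.

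Of the border-associated macrophage list, 7 of 11 tested genes rose and none fell, with a median log2 fold change of 1.15. Ms4a7 had 974 CPM in FLASH members and 993 CPM in standard members, against 276 CPM and 170 CPM in the microglia class. Its log2 fold change was 2.12 ± 0.19 (SE, n = 2 libraries, edgeR adjusted p = 2.09e-05). Dab2 had 397 CPM and 402 CPM in members, against 70.3 CPM and 77.7 CPM in the microglia class, and rose by 2.38 ± 0.20 on the log2 scale (edgeR adjusted p = 1.15e-05). Both genes were close to equal between libraries and well apart between classes. Stab1, a scavenger receptor for altered lipoproteins and matrix fragments, rose by 1.10 and Maf, a transcription factor of resident macrophages, by 1.15. Ccl8, a chemokine of tissue macrophages, had 48.9 CPM in FLASH members and 38.3 CPM in standard members and 0 UMIs in the microglia class of both libraries. Against a floor of 3 UMIs per library, it was at least 9.27-fold higher in the FLASH library and at least 8.70-fold higher in the standard library. Cbr2 and Igfbp4 also rose, by 2.83 and 3.37 on the log2 scale. Folr2 had a log2 fold change of -1.08 that did not pass the test (edgeR adjusted p = 0.138).

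These 17 listed border genes were spread over many members. Their RNA was found in 56 of 56 FLASH members and 64 of 64 standard members. The 5 members with the most held 22.1% of the UMIs in the FLASH library and 21.2% in the standard library. RNA of this list was not particular to members. It summed to 2820 CPM and 2890 CPM in FLASH and standard members, against 1021 CPM and 1145 CPM in the microglia class. In the C1q-only class it summed to 1137 CPM and 1057 CPM. Ms4a7 alone was detected in 87.5% of the members of each library, against 35.4% and 22.9% of the microglia class at a like depth and 0.378% and 0.343% of barcodes below the C1q limit.

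MHC class II genes, which present peptides to CD4 T cells, rose in 4 of 6 tested. Their median log2 fold change was 2.71. The chain gene H2-Aa had 224 CPM in FLASH members and 189 CPM in standard members, against 14.1 CPM and 2.93 CPM in the microglia class, a log2 fold change of 4.66 ± 0.47 (SE, edgeR adjusted p = 4.51e-05). H2-Eb1 rose by 3.80 ± 0.33, H2-Ab1 by 2.63 and Cd74, the invariant chain, by 2.79 ± 0.23. The peptide exchange genes H2-DMa and H2-DMb1 had log2 fold changes of -0.06 and 0.00 and did not pass the test.

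This RNA was held by few members. Of all MHC class II UMIs, 5 members held 79.9% in the FLASH library and 57.7% in the standard library. At least 10 such UMIs were found in 9 FLASH and 15 standard members, whose median depth of 8613 and 7924 UMIs was close to that of the others. Ccr2 was detected in 6 of these 9 and 13 of these 15 members, and in 6 of the other 47 and 8 of the other 49. Mgl2, a galactose lectin, was found in 5 of 9 and 6 of 15, and in 4 of 47 and 2 of 49. Mrc1 was present in both sets, in 8 of 9 and 15 of 15 members with these UMIs and in 27 of 47 and 38 of 49 of the others. The members thus included a smaller set of barcodes with MHC class II, often with Ccr2, within a larger set with little of either.

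The promoters of H2-Aa and H2-Eb1 are shown because these chains rose most among the MHC class II genes and share a known promoter element. The windows are the 250 bases before the gene start in RefSeq on GRCm38.p6, written from 5′ to 3′ in the direction of the gene, with CTGATTGG, the Y box core bound by NF-Y, in capitals.
H2-Aa, minus strand, chr17:34287824-34288073: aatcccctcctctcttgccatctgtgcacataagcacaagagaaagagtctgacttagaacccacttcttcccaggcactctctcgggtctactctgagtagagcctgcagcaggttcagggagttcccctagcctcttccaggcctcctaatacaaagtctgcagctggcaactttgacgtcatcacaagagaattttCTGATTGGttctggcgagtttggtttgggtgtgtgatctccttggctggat
H2-Eb1, plus strand, chr17:34305617-34305866: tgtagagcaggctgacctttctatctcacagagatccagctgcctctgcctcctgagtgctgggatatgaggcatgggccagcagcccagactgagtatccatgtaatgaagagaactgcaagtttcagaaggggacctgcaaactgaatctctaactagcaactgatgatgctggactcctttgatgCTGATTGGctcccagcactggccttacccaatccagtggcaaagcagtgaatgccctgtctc
Both strands were searched for this 1 motif, and its only match begins 51 bases before the gene start in H2-Aa and 62 bases before it in H2-Eb1. The same letters occur in 1258 of 32851 promoter windows of this length, or 3.83%. Windows of H2-DMa and H2-DMb1, the 2 tested members of the list that did not pass, held no match, which says only that these letters are not in those windows. H2-Ab1 and Cd74, which rose, and Ciita were not searched here, so the windows do not compare all genes that rose with those that did not pass.

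**Figure D2:**
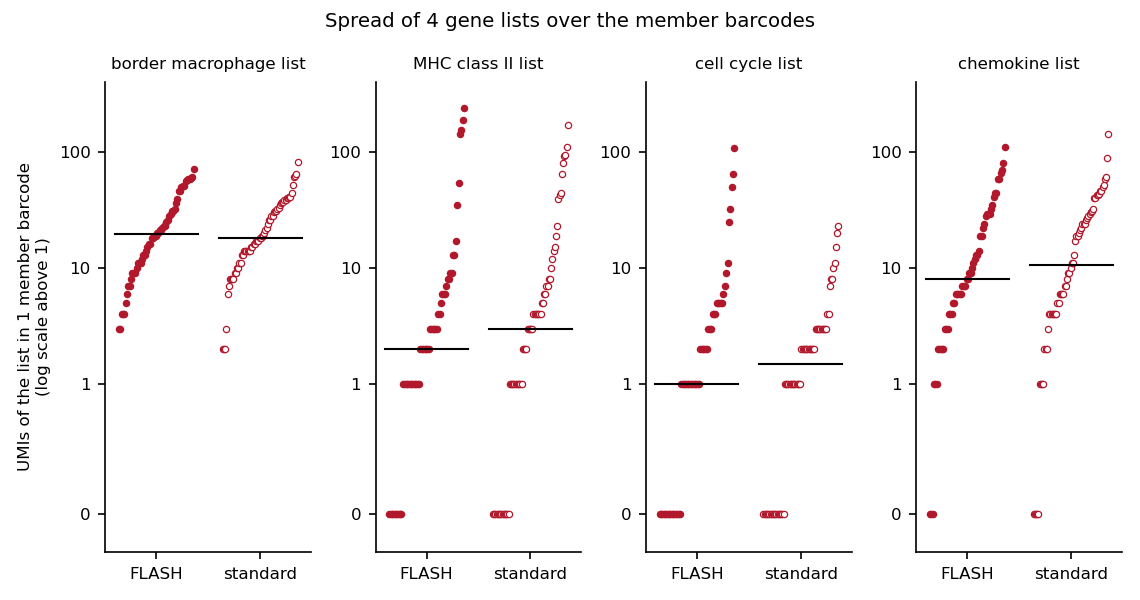
UMIs of 4 gene lists in each member barcode (log scale above 1), sorted within the 56 FLASH members and the 64 standard members, with the median as a bar. The border list rises gradually over the members, whereas a few members hold most MHC class II and, in the FLASH library, most cell cycle UMIs.

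Genes of recently arrived monocytes rose in 4 of 7 tested, with a median log2 fold change of 2.31. Ccr2 had 114 CPM in FLASH members and 122 CPM in standard members, against 29.9 CPM and 5.86 CPM in the microglia class, with a log2 fold change of 2.78 ± 0.41 (SE, edgeR adjusted p = 0.000875). S100a4 rose by 2.77, the integrin gene Itgal by 2.31 and Ms4a4c by 1.58, but DESeq2 did not call Itgal or Ms4a4c. Ccr2 was found in 12 FLASH members and 21 standard members, so most members had no Ccr2 UMI.

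Genes of alternative activation, the state that interleukin-4 induces in mouse macrophages, rose in 5 of 10 tested with a median log2 fold change of 1.55. Retnla, a secreted marker of this state, had 174 UMIs in FLASH members and 52 in standard members and 0 UMIs in the microglia class. It was at least 67.2-fold higher in the FLASH library and at least 22.6-fold higher in the standard library, but only 6 FLASH and 5 standard members carried it, and DESeq2 did not call it. Arg1, arginase, had 71.3 CPM in FLASH members and 189 CPM in standard members, against 8.79 CPM and 5.86 CPM in the microglia class. Its log2 fold change was 4.09 ± 0.44 (SE, edgeR adjusted p = 8.14e-05), and 1 barcode held 62.9% of its UMIs in FLASH members and 54.5% in standard members. Mgl2 rose by 4.82, Tgm2 by 2.04 and the receptor chain Il4ra by 1.06, of which DESeq2 called Mgl2 alone.

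Complement and scavenger genes moved in part. Cfp, which encodes properdin, the stabiliser of the alternative pathway convertase, had 110 CPM in FLASH members and 128 CPM in standard members, against 8.79 CPM and 2.93 CPM in the microglia class, and rose by 4.32. C2 rose by 2.82 and C4b by 2.18, so that 3 of 7 complement genes outside C1q rose, with a median of 1.24. Among 7 scavenger receptors, Cd36 rose by 2.20, Msr1 by 1.49 and Stab1 by 1.10, with a median of 0.41. Cybb, the catalytic subunit of the phagocyte NADPH oxidase, rose by 1.74. DESeq2 did not call C2, C4b, Cd36 or Msr1. Also among the genes with the largest rises were Cd93 with 3.72, Ahnak with 3.69 and S100a6 with 3.10.

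Microglia genes outside the rule fell in 10 of 10 tested, with a median log2 fold change of -2.07. Sparc, a secreted matrix protein, had 167 CPM in FLASH members and 11.5 CPM in standard members, against 2194 CPM and 2844 CPM in the microglia class. It fell by 5.03 ± 0.49 on the log2 scale, and 1 barcode held 85.4% of its UMIs in FLASH members. Gpr34 fell by 2.23, Olfml3 by 1.76, and the fractalkine receptor gene Cx3cr1 by 1.06. Among all genes, Cst7, an inhibitor of cysteine proteases, fell by 4.49 ± 0.29 (edgeR adjusted p = 2.26e-06), Nav3 by 4.32, the tetraspanin gene Cd81 by 4.04, Adamts1 by 3.84, Cd34 by 3.60 and the ganglioside synthase gene St3gal5 by 2.92.

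Inflammatory and receptor genes were lower too. Il1a fell by 1.71, Tnf by 1.25, Nfkbia by 1.19 and Il1b by 0.73, which were 4 of 7 tested inflammatory genes, with a median of -0.92. The chemokine genes split, since Ccl4, Ccl3 and Ccl6 fell by 2.64, 1.65 and 1.51, and Ccl7, Ccl8 and Cxcl1 rose, among 14 tested. Of 11 cytokine receptors, Tgfbr1, Csf1r, Cx3cr1, Ifngr1 and Tgfbr2 fell by 1.29 to 0.80, and Ccr2 rose. The cathepsin gene Ctsl fell by 2.72, with 532 CPM in FLASH members and 342 CPM in standard members, against 2459 CPM and 3107 CPM in the microglia class. Of 13 transcription factors, Maf and Tfec rose and Klf2, Mef2c and Runx1 fell. DESeq2 did not call Il1a, Tnf, Il1b, Ccl7, Ifngr1, Tgfbr2 or Runx1, and Ccl6 lost its call at 5% mitochondrial UMIs. Cxcl1, with 8 UMIs in FLASH members and 9 in standard members, had a value in only 5 alternatives. Tfec had one in only 6, against 13 for Ccl7.

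**Figure D3:**
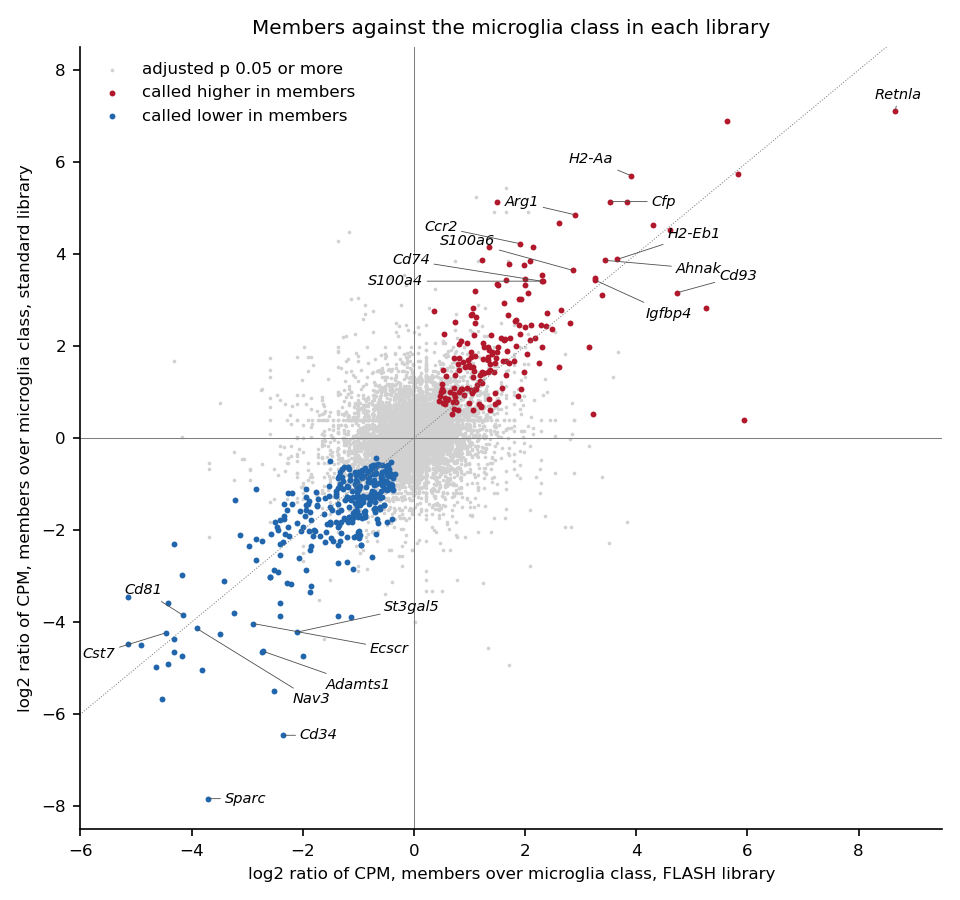
Log2 ratio of CPM, members over microglia class, in the FLASH library (x axis) and the standard library (y axis) for the 7314 tested genes; red and blue points were called higher and lower in members. The named genes with the largest rises lie in the upper right and those with the largest falls in the lower left, with the same sign in both libraries.

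Against the C1q-only class, 390 of 7314 genes (5.33%) were called, 125 higher (1.71%) and 265 lower (3.62%), with a median of 0.00 over all genes. Members stood apart by border-associated genes, Ccl7 and Cxcl2, and by lower Spp1, Mmp12 and Ctsl. The call count fell to 90 without barcodes holding at least 3 UMIs of granule lineage genes, to 121 with at least 10 C1q UMIs, to 86 with every barcode thinned to 2000 UMIs and to 71 with DESeq2. Granule lineage RNA differed between the classes, at 222 CPM and 472 CPM in FLASH and standard members, against 875 CPM and 1025 CPM in the C1q-only class. Its part in these calls, and that of the lower depth of the C1q-only class, was not tested beyond these settings.

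Of the border-associated list, 6 of 11 tested genes rose, with a median log2 fold change of 1.57. Dab2 had 397 CPM in FLASH members and 402 CPM in standard members, against 100 CPM and 75.8 CPM in the C1q-only class, a rise of 2.23 ± 0.18 (SE, edgeR adjusted p = 7.33e-05). Stab1 rose by 1.72 ± 0.17, Maf by 1.57 and Ms4a7 by 1.24. Igfbp4, an insulin-like growth factor binding protein, rose by 2.35. Dab2, Stab1, Maf, Ms4a7 and Igfbp4 passed the test against both classes in each alternative that was run and gave them a value.

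The monocyte chemoattractant gene Ccl7 had 120 CPM in FLASH members and 329 CPM in standard members, against 23.5 CPM and 58.8 CPM in the C1q-only class, and rose by 2.48 ± 0.37 (SE, edgeR adjusted p = 0.00182). Cxcl2, a neutrophil chemoattractant, rose by 1.89 and Ccl12 by 1.04. Cfp rose by 1.99, Arg1 by 1.78 and Retnla by 2.12, although Retnla had 0 UMIs in the standard C1q-only class and lost its call without granule lineage barcodes. DESeq2 did not call Ccl7, Cxcl2, Arg1, Retnla or Dse, and Ccl12 lost its call without granule lineage barcodes. Fos, Fosb, Egr1 and Hspa1a, genes that respond to handling and stress within minutes to hours, rose by 0.65, 0.66, 0.68 and 2.18, and all but Hspa1a lost the call without granule lineage barcodes. Yae1d1, Dse and Smagp also rose, by 2.43, 2.05 and 2.03.

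Lower in members were genes of lipid-associated macrophages, 6 of 13 tested, with a median of -0.79. Spp1, osteopontin, had 4381 CPM in FLASH members and 1875 CPM in standard members, against 11531 CPM and 8447 CPM in the C1q-only class, and fell by 1.72 ± 0.17 (SE, edgeR adjusted p = 0.000168). The integrin gene Itgax fell by 1.44, Cd9 by 1.18, Lpl, lipoprotein lipase, by 1.12, Cst7 by 2.77 and Lgals3 by 0.74. Lpl, Lgals3 and Cst7 lost the call at 2000 UMIs a barcode, and Itgax and Lgals3 with DESeq2. Mmp12, macrophage elastase, had 0 UMIs in the members of both libraries, against 78 UMIs in the FLASH and 66 in the standard C1q-only class. At a floor of 3 UMIs per library it was at least 15.8-fold lower in FLASH members and at least 15.0-fold lower in standard members. Ctsl fell by 2.43 ± 0.21, as it had against the microglia class.

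Against the C1q-only class, MHC class II genes passed edgeR's test in 0 of 6 cases and monocyte genes in 0 of 7. Of them, 3 and 2 had an unadjusted p under 0.05, and DESeq2 called 0. Over all genes 5.33% were called in this comparison, so counts of 0 in lists this short are near that share. H2-Ab1 was nearest to the threshold, with a log2 fold change of -0.57 (edgeR adjusted p = 0.0635). Of the granule lineage genes, 5 of 9 fell, among them Zic1 by 1.43 and Neurod1 by 1.34, and the Cre transgene fell by 3.90. Pde1c, Gria2 and Fez1, genes active in neurons, fell by 2.65, 2.54 and 2.62. Zic1, Neurod1, Gria2 and Fez1 lost the call without granule lineage barcodes, and Cre kept it.

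**Figure D4:**
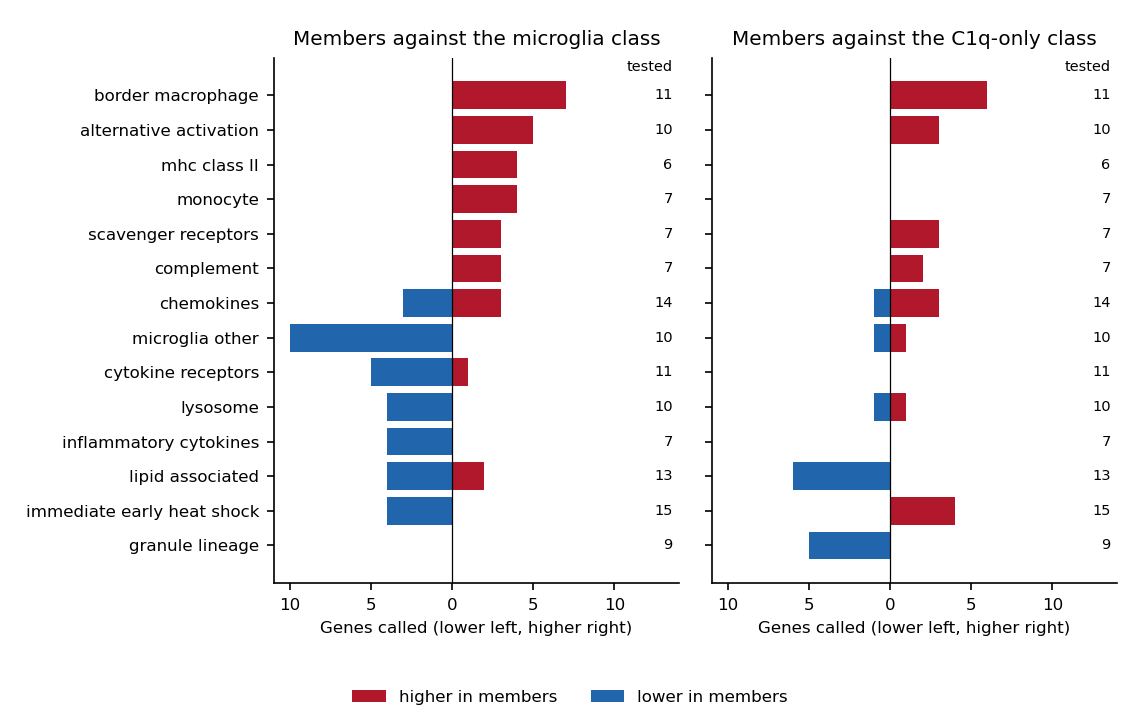
Genes called higher (red, to the right) and lower (blue, to the left) in members for 14 gene lists, against the microglia class and against the C1q-only class, with the number tested at the right of each panel. Border-associated genes were higher in both panels, whereas MHC class II and monocyte genes were called only against the microglia class. Against the C1q-only class 5.33% of all genes were called, so a count of 0 in a short list is near that share. The difference between the panels was not tested.

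The shares of these macrophages in the FLASH and standard tumours had overlapping counting intervals. Members made up 0.540% of kept barcodes after FLASH (95% exact binomial interval 0.408% to 0.701%), against 0.756% after standard irradiation (0.583% to 0.965%). Among C1q barcodes they made up 18.4% (14.2% to 23.2%) after FLASH, against 21.2% (16.7% to 26.2%) after standard irradiation. With the double barcodes counted in, the shares of C1q barcodes were 32.2% after FLASH and 28.5% after standard irradiation, so the direction turned. The intervals cover counting error only, not differences between tumours.

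Within the members most genes stood close after both kinds of irradiation. Genes were compared where the members of both libraries together had at least 50 UMIs and those of either library had 50 CPM or more. Of 2682 such genes, 268 (9.99%) differed by more than 1.5-fold. Of these, 137 (5.11%) were higher and 131 (4.88%) were lower after FLASH, and the median log2 ratio was -0.01. The corresponding shares were 13.4% in the microglia class and 8.63% in the C1q-only class. With 1 library a group no test was possible, and the values below compare these 2 libraries.

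Monocyte chemoattractants, which signal through Ccr2, differed between the libraries. Ccl2, on chromosome 11 at 82035571 to 82037453, had 87 UMIs in 24 FLASH members and 290 UMIs in 33 standard members. This was 177 CPM after FLASH, against 555 CPM after standard irradiation, a log2 ratio of -1.64 (95% counting interval -2.01 to -1.30). Ccl7, its neighbour at 82045712 to 82047525, had 120 CPM after FLASH, against 329 CPM after standard irradiation, a log2 ratio of -1.44 (-1.90 to -1.02). Ccl7 was found in 14 of 56 FLASH members and 21 of 64 standard members. A few members held much of these UMIs, with 5 members holding 55.9% of the Ccl7 UMIs after FLASH and 66.3% after standard irradiation, and 49.4% and 50.3% of the Ccl2 UMIs, with at most 18.6% in 1 member. Ccl12, in the same gene cluster at 82101845 to 82103400, went the other way with 491 CPM after FLASH, against 277 CPM after standard irradiation, a log2 ratio of 0.82, which was 0.16 after thinning. Ccl2 had a log2 ratio of -0.52 in both the microglia and the C1q-only class, and Ccl7 had 1.19 in the microglia class and -1.30 in the C1q-only class. With double barcodes counted in, the ratio of Ccl2 in members was -0.99. Of 9 chemokine genes measured, 2 were higher and 3 lower after FLASH past 1.5-fold, with a median of -0.18.

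Lipid-associated genes included several with higher levels after FLASH. Spp1 had 4381 CPM after FLASH, against 1875 CPM after standard irradiation, a log2 ratio of 1.22, in 46 FLASH and 45 standard members. Gpnmb, a transmembrane glycoprotein of lysosome-rich macrophages, had a ratio of 0.95 and Lgals3, galectin-3, of 0.75. The ratio of Gpnmb was 0.085 among members with at least 5 marker UMIs, and that of Lgals3 was 0.51 with double barcodes, both within 1.5-fold. The list counted 3 of 10 genes past 1.5-fold, all higher after FLASH, with a median of 0.32. A single member held 20.7% of Spp1 UMIs after FLASH and 30.7% after standard irradiation.

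Several genes of other roles were higher after FLASH. Cyp4f18, which inactivates leukotriene B4, had 69 UMIs in 33 FLASH members and 19 UMIs in 12 standard members, a ratio of 1.92 (1.20 to 2.77). Smpdl3a, a phosphodiesterase of the acid sphingomyelinase family, had 54 UMIs in 28 FLASH members and 23 UMIs in 10 standard members, a ratio of 1.30. Hmox1, haem oxygenase, had a ratio of 1.39, but 1 FLASH member held 47.1% of its UMIs and the ratio without that barcode was 0.64. S100a6 had a ratio of 1.32, which was 0.52 with doublets removed, and Spty2d1 had 1.29. Ccl6 had a ratio of 1.79 with 57.5% of its FLASH UMIs in 1 member, and of 0.56 among members with at least 5 marker UMIs.

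Proliferation genes were higher after FLASH but lay in few members. Mki67 had 147 CPM after FLASH, against 45.9 CPM after standard irradiation, a log2 ratio of 1.66 (0.99 to 2.41), and Top2a had a ratio of 1.97. The list had 4 of 6 measured genes past 1.5-fold and a median of 1.68. At least 10 cell cycle UMIs were found in 6 of 56 FLASH members and 5 of 64 standard members, with 289 and 79 such UMIs in all. These members were deep, with a median of 12228 UMIs after FLASH and 11178 after standard irradiation. Of them, 3 and 1 also had at least 3 UMIs of the 11 granule lineage genes, against 6 of 50 and 12 of 59 of the other members. Tumour cells carry these genes widely, since Mki67 was detected in 40.2% of FLASH and 40.0% of standard barcodes below the C1q limit, against 26.8% of FLASH and 18.8% of standard members. Without members that held at least 3 UMIs of 7 granule lineage genes the ratios were 0.73 for Mki67 and 1.08 for Top2a, and with double barcodes 0.58 and 0.92.

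Alternative activation genes did not move as a block. Retnla had a log2 ratio of 1.82, Mgl2 of 1.08 and Klf4 of 0.95, while Arg1 had -1.40. A single member held 50% of the Retnla UMIs after FLASH and 65.4% after standard irradiation. For Mgl2, 5 members held 90.4% and 88.5%. Arg1 was found in 7 FLASH and 10 standard members, and its ratio was -0.08 when each member's CPM was averaged. MHC class II genes were all within 1.5-fold, 0 of 5, with a median of 0.24. Of the MHC class I genes, H2-K1 had 950 CPM after FLASH, against 620 CPM after standard irradiation, a ratio of 0.61, and the other 5 measured were within 1.5-fold.

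Among the genes lower after FLASH, Sdc4, the heparan sulphate proteoglycan syndecan-4, had 58 UMIs in 24 FLASH members and 155 UMIs in 41 standard members, a ratio of -1.32 (-1.79 to -0.88). The lectin receptor gene Clec4a1 had 15 UMIs in 12 FLASH members and 47 UMIs in 25 standard members, a ratio of -1.52. Plbd1 had a ratio of -1.43, Upf3a of -1.32, Clec2d of -1.24 and Ebf1 of -1.22. With double barcodes the ratio of Ebf1 was -0.27, within 1.5-fold, and that of Upf3a was -0.69 without its top barcode. Rtn1 had -1.36, and is a gene found in 85.3% of FLASH and 83.2% of standard barcodes below the C1q limit. Granule lineage genes were lower too, with 3 of 3 past 1.5-fold and a median of -0.998. That median ran from -2.22 after thinning to -0.23 at 5 or more marker UMIs, and 5 members held 69.7% of the UMIs of this list after FLASH and 62.3% after standard irradiation.

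Of 8 border-associated genes measured, 2 were higher and 1 lower after FLASH past 1.5-fold, with a median of -0.02. Higher were Folr2, a folate receptor gene, at 1.40 and Gas6, which encodes a ligand of the TAM receptor kinases, at 0.89, with 143 CPM after FLASH, against 76.5 CPM after standard irradiation. After thinning Gas6 was at -0.10. Igfbp4 was lower at -0.70, with 91.7 CPM after FLASH, against 149 CPM after standard irradiation. Within 1.5-fold were Ms4a7 at -0.03, Dab2 at -0.02, Stab1 at 0.14, Colec12 at -0.36 and Maf at -0.44.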

How the data were processed

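The deposited matrices hold raw UMI counts per gene and cell barcode for 2 tumour libraries made with 10x Genomics V3 chemistry, per the labels' protocols; the file headers name Cell Ranger 6.1.2 as the authors' counting software, and the submitters' processing notes name mm10. Further filtering by the authors is not stated there. The files list 14269 FLASH and 12867 standard barcodes with 63178900 and 55532202 UMIs over 31055 features, of which 30934 matched GENCODE M21 annotation for coordinates; promoters are from RefSeq.

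Barcodes with under 500 genes or over 10% mitochondrial UMIs were left out. Scrublet's automatic threshold marked 0 FLASH and 1 standard barcodes, so doublets were kept, and an alternative removed the highest scoring 8.30% and 6.77%, with 6 and 4 members. Counts were summed per class and library and fitted across all genes passing edgeR's filterByExpr with edgeR 4.0.16 (quasi-likelihood, TMM, library as block, Benjamini-Hochberg threshold 0.05, the 11 rule genes left out); the fit has 2 residual degrees of freedom, and leaving out a library leaves none. Tested on simulated counts for members against the microglia class over 6541 genes, it called 18 of 84 genes changed by 1 log2 unit, 92 of 114 changed by 2 and 4 of 6343 unchanged ones. These counts had a fixed spread above the fitted one (common dispersion 0.0122). They had no gene differences between libraries and no UMIs gathered in few barcodes, so these rates may not hold for the data. FLASH was set against standard as log2 CPM ratios of member sums with a prior of 0.5 counts and exact binomial 95% intervals, which cover counting error only.

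Named genes were the 12 highest and 8 lowest called genes per class comparison, with at least 50 CPM in the higher class and the same sign in both libraries. For FLASH against standard they were the 10 highest and 10 lowest genes with UMIs in at least 10 members of the higher library, and up to 4 were taken from each gene list; genes described for their role were added. Ribosomal, mitochondrial, haemoglobin, immunoglobulin and unnamed genes were left out of the rankings, and some genes that the rules name are not reported here. The members and lists were chosen with earlier results of these data known. Alternatives included DESeq2 1.42.0, its size factors, no filter, other barcode limits, thinning to 2000 UMIs, and barcodes without granule lineage RNA. Leaving out endothelial barcodes and adding double barcodes were chosen after seeing the data. The analysis used Python 3.11.15 and R 4.3.3.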

Additional observations from a re-analysis of the deposited data

Results flagged for a closer look

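For 5 of the genes named in the members, the log2 ratio of FLASH over standard had the opposite sign in the microglia class past 1.5-fold. The difference between the classes was not tested, since each rests on 1 library a group. The ratio of Ccl7, a monocyte chemoattractant, was -1.44 in members (120 CPM after FLASH, against 329 CPM after standard irradiation) and 1.19 in the microglia class (51.0 CPM, against 22.0 CPM). For Ebf1, a transcription factor, it was -1.22 in members (30.6 CPM, against 72.7 CPM) and 1.61 in the microglia class (77.4 CPM, against 24.9 CPM), and -0.27 in members with double barcodes counted in. Folr2, the folate receptor gene of the border list, had 1.40 in members (87.6 CPM, against 32.5 CPM) and -0.89 in the microglia class (82.6 CPM, against 154 CPM). Rtn1, a gene common in the tumour barcodes, had -1.36 in members (59.1 CPM, against 153 CPM) and 1.03 in the microglia class (186 CPM, against 90.9 CPM). The proliferation gene Top2a had 1.97 in members (122 CPM, against 30.6 CPM) and -0.68 in the microglia class (33.4 CPM, against 54.2 CPM).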

How the results depend on the processing

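Members against the microglia class gave 474 calls, and 236 with at most 5% mitochondrial UMIs, 191 thinned to 2000 UMIs and 144 with DESeq2. Against the C1q-only class 390 calls became 192 with at most 5% mitochondrial UMIs, 121 with at least 10 C1q UMIs, 90 without granule lineage barcodes, 86 thinned to 2000 UMIs, 673 with no filter and 71 with DESeq2. The 268 genes past 1.5-fold between FLASH and standard members became 70 after thinning, where fewer genes reach the minimum, and 1128 with a minimum of 20 UMIs and no CPM minimum. Other causes were not tested. Without the library as a replicate block the class comparisons gave 485 and 387 calls, and the block changed neither count by 1.5 times.

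No class fold change of a called gene among those named or listed turned round in the alternatives run. Among FLASH ratios past 1.5-fold in members, Cldn5 turned to between -2.70 and -2.23, with -2.50 at 5 or more marker UMIs, -2.63 with doublets removed, -2.70 without granule lineage barcodes, -2.67 without endothelial barcodes and -2.23 without its 1 barcode. That barcode held all FLASH UMIs of Cldn5, so these ratios set only the prior of 0.5 counts against few standard UMIs. Standard members had 10 UMIs over the whole endothelial list. Gas6 turned to -0.10 after thinning, Tubb3 to 0.068 and Thbs1 to -0.58 at 5 or more marker UMIs, and Mbp to 0.072 with double barcodes. Of ratios within 1.5-fold, S100a4 went to -1.82 and Ccl9 to -1.61 after thinning, against 0.45 and 0.36. Thinning also moved Folr2 to 2.53, Smpdl3a to 2.03, Spty2d1 to 2.06, Rtn1 to -2.01, S100a6 to 0.59, Top2a to 1.18 and Mki67 to 1.02. With double barcodes Klf4 was at 0.51, H2-K1 at 0.33 and Rtn1 at -0.66. Retnla reached 3.27 with doublets removed and Arg1 -2.80 with at least 1000 genes. The log2 ratio of the members' share of kept barcodes ran between -0.67 and -0.10, and that of C1q barcodes between -0.39 and 0.18. Depth limits genes with low counts, and members of the standard library had as few as 901 UMIs.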

Other observations

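Genes of engulfment, the uptake of dead cells, split between receptors in the members. Against the microglia class, Axl rose by 0.88 on the log2 scale while Mertk fell by 1.30 and the bridging protein gene Pros1 by 2.39, among 12 tested, of which 3 rose and 3 fell. Axl and Mertk are receptor kinases that bind such bridging proteins. Axl had 124 CPM in FLASH members and 166 CPM in standard members, against 75.6 CPM and 77.7 CPM in the microglia class, and Mertk had 93.7 CPM in both libraries, against 218 CPM and 229 CPM. Of the 13 genes of lipid-associated macrophages, Fabp5, a fatty acid binding protein, and Lgals3 rose by 1.21 and 0.85, and Lpl, Cd9, Ctsd and Cst7 fell.

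Of 16 listed genes that p53 induces after DNA damage, only 3 were measured, and all 3 were within 1.5-fold between FLASH and standard members. Their median log2 ratio was 0.52, under but near that limit, against -0.01 over all genes measured. Cdkn1a, the cell cycle inhibitor p21, had 587 CPM after FLASH, against 398 CPM after standard irradiation, and Bax, a cell death gene, had 283 CPM, against 197 CPM. The log2 ratio of Cdkn1a ran from -0.10 to 0.76 over the alternatives. Of 5 interferon-stimulated genes measured, Irf7 and Ifit3 were past 1.5-fold with log2 ratios of 0.89 and 0.64, and the median was 0.56. Ifit3 had 31 UMIs in FLASH members and 21 in standard members. Across the alternatives Irf7 ran from 0.33 to 1.10 and Ifit3 from 0.32 to 1.54, so both came within 1.5-fold in some.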
